A study of Mus musculus with 98 samples.

Results

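Gpx3, the glutathione peroxidase that is secreted into plasma, and 6 other genes of peroxide and thiol defence were followed in mice carrying a liver rebuilt from human or from murine hepatocytes. The 7 genes are Gpx1, Gpx3, Gpx4, Gpx7, Gpx8, Selenop and Txnrd1, out of 19347 mouse genes present in both count tables. They were taken by symbol and selected on measured values, starting from the higher level of Gpx3 in the muscle of mice with human hepatocytes. That level difference in muscle is therefore given as a description, with no p-value for the 7 genes. All 7 genes passed the low-count filter in all 4 tissues.

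Glutathione peroxidases reduce peroxides with electrons from glutathione, and thioredoxin reductase keeps thioredoxin reduced with electrons from NADPH. Many of these enzymes carry selenocysteine, an amino acid inserted at a UGA codon that would otherwise end translation, at the site where the chemistry takes place. The liver makes selenoprotein P (Selenop), which carries selenium through the blood to other organs. Gpx1 works in the cytosol and mitochondria, Gpx3 outside the cell, and Gpx4 acts on lipid peroxides in membranes. Gpx7 and Gpx8 sit in the endoplasmic reticulum, where they take part in the oxidative folding of proteins. Txnrd1 is the cytosolic thioredoxin reductase.

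The coding sequence around the catalytic codon is shown for each gene, because it tells which of the 7 encode selenoproteins. Each window reads 5′ to 3′ on the coding strand, from the mouse genome GRCm38 with GENCODE M21 transcripts. The capitals mark the selenocysteine codon or, in Gpx7 and Gpx8, the codon that aligned with the selenocysteine of Gpx1.
Gpx1: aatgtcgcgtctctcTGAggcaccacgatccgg
Gpx3: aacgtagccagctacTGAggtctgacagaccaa
Gpx4: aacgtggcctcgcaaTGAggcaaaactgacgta
Gpx7: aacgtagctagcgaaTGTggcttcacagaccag
Gpx8: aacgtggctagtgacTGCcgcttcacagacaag
Selenop: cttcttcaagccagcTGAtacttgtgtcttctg
Txnrd1: ctccagtctggctgcTGAggttaa

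Gpx1, Gpx3, Gpx4 and Txnrd1 each hold 1 in-frame TGA codon ahead of the stop codon, and Selenop holds 10. Gpx7 and Gpx8 hold none: their codon at this place is TGT and TGC, both for cysteine. The name selenoprotein therefore fits 5 of the 7 genes, and Gpx7 and Gpx8 are cysteine members of the glutathione peroxidase family. Over the aligned residues, Gpx3 shared 50.3% of its amino acids with Gpx1, Gpx4 40.0%, Gpx7 39.8% and Gpx8 30.8%. Selenocysteine was scored as cysteine there, so the catalytic position counted as shared in Gpx7 and Gpx8 too. The codon shown is number 47 of Gpx1, 73 of Gpx3, 129 of Gpx4, 56 of Gpx7 and 79 of Gpx8. In Selenop it is codon 59, the first of its 10. In Txnrd1 it is codon 612 of 613, the last codon but one before the stop codon.

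All 7 windows lie in coding exons. The window of Gpx1 spans chr9:108339436-108339468 on the plus strand, within a gene that spans chr9:108338903-108340343. For Gpx3 the window is chr11:54907241-54907273 and the gene chr11:54902453-54910377, on the plus strand. For Gpx4 the window is chr10:80054722-80054754 and the gene chr10:80047166-80056439, on the plus strand. Gpx7 is on the minus strand, with the window at chr4:108403415-108403447 in a gene at chr4:108400390-108406961. Gpx8 is also on the minus strand, with the window at chr13:113045646-113045678 in a gene at chr13:113042753-113046410. The Selenop window is chr15:3274833-3274865 and its gene chr15:3268547-3280508, on the plus strand. The Txnrd1 window is chr10:82896022-82896045 and its gene chr10:82833951-82897712, on the plus strand.

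Some annotated genes overlap these loci, and the counting rule for overlaps is not given in the sources used here. Ccdc152, antisense to Selenop, had a median of at most 0.09 CPM (mouse counts scaled to a common library total of 1e+06) in every tissue and arm. Eid3, on the strand of Txnrd1, had a median of 3.62 CPM in liver of the murine arm and 14.6 CPM in liver of the human arm. The medians of Txnrd1 in the same groups were 248 and 694 CPM. Cdc20b, on the other strand at Gpx8, had medians of 0.348 CPM in MU ARC and 0.291 CPM in HU ARC, beside 2.26 and 2.75 CPM of Gpx8.

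The animals were 10-week-old male FRGN mice, which carry Fah-/-, Rag2-/- and Il2rg-/- on a cross to a non-obese diabetic strain. Both arms shared these deletions, cycles of nitisinone (NTBC, which protects hepatocytes that lack Fah), sulfamethoxazole and trimethoprim in the water, dextrose water and a high-energy diet. In the arm labelled HU, human hepatocytes had been injected into the spleen and had colonised the liver. In the control arm, labelled MU, the injected cells were murine hepatocytes. Animals of the human arm were kept only above a repopulation of 70%, per the labels. Their livers still held mouse RNA, that of hepatocyte markers included (values below). Liver and skeletal muscle gave 15 HU and 12 MU libraries each, and the arcuate nucleus (ARC) and suprachiasmatic nucleus (SCN) 10 HU and 12 MU each. Sampling times were ZT2, ZT6, ZT10, ZT14, ZT18 and ZT22, where zeitgeber time (ZT) counts hours from the start of the light phase. Each arm had 1 to 3 libraries of a tissue at a given time. The labels do not say which libraries came from the same mouse, and p-values below measure the spread between libraries.

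Mouse counts per library, in units of 1e+06 counts, were 7.70 to 87.9 in HU liver and 97.1 to 118.3 in MU liver. They were 43.1 to 92.05 in muscle and 23.7 to 47.1 in the 2 nuclei. In HU livers 15.9% to 93.1% of all counts lay in human rows, with a median of 58.7%, against at most 0.0204% in MU livers. A share of counts is another measure than the repopulation of 70% in the labels, and its median lay below that number. Hepatocyte markers (summed CPM of 5 genes) reached 91950 to 122800 in MU liver, and muscle fibre markers (6 genes) 76530 to 169100 in muscle, where the labels place them. The nuclei matched their labels less well. Agrp, a marker of arcuate neurons, was at 2.07 to 26.5 CPM in libraries labelled ARC and 0.293 to 0.998 CPM in those labelled SCN. Vip, a defining peptide of the SCN, had a median of 4.21 CPM in ARC and 3.83 CPM in SCN, and Avp was lower in SCN (median 64.7 CPM) than in ARC (199.5 CPM). Six6, a transcription factor of the SCN, was also lower there, with a median of 0.784 CPM against 9.07 CPM. Nms and Prok2, a pair of SCN peptides, had slightly higher medians in SCN, 1.12 against 0.896 CPM and 0.896 against 0.617 CPM, with overlapping ranges. Libraries labelled SCN thus held no clear excess of SCN markers over those labelled ARC, and the names ARC and SCN below stand for the labels.

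The 7 genes differed widely in where they were expressed. In MU mice Selenop had a median of 6621 CPM in liver, 426 CPM in SCN, 420 CPM in ARC and 166 CPM in muscle. The ranges of the 2 nuclei overlapped, and those of liver and of muscle stood apart from them. Gpx1 was likewise a liver gene, at 1623 CPM, against 58.9 CPM in ARC, 58.4 CPM in SCN and 40.3 CPM in muscle, where the last 3 overlapped as neighbours. Txnrd1 was highest in liver at 248 CPM, and ARC (114 CPM), muscle (114 CPM) and SCN (95.0 CPM) overlapped in that order.

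Gpx3 was lowest in liver. Its MU medians were 264 CPM in ARC, 143 CPM in muscle and 108 CPM in SCN, and ARC and muscle, and muscle and SCN, overlapped as neighbours. Its liver median was 9.36 CPM, and the whole liver range lay below that of the SCN. In HU mice muscle came first, at 346 CPM, followed by ARC at 249 CPM, SCN at 109 CPM and liver at 25.1 CPM, and of these neighbours ARC and SCN alone did not overlap. Gpx4 was nearly even across tissues, with MU medians from 214 to 249 CPM and overlapping ranges between neighbours. The 2 genes of the endoplasmic reticulum were low everywhere: Gpx7 had MU medians of 1.76 to 4.28 CPM and Gpx8 of 1.47 to 5.40 CPM, both highest in muscle. CPM values were scaled within each tissue, so these levels across tissues are a description.

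Set per kilobase of exon, which allows genes to be compared, the order within MU liver was Selenop (2330 CPM per kilobase), Gpx1 (1127), Gpx4 (144), Txnrd1 (35.02), Gpx3 (5.16), Gpx8 (1.40) and Gpx7 (1.36). In MU muscle Gpx4 led with 132 CPM per kilobase, then Gpx3 with 78.9 and Selenop with 58.5. In HU muscle Gpx3 came first, with 191 CPM per kilobase against 153 for Gpx4. In ARC, Selenop (148) and Gpx3 (145) stood side by side, whereas in SCN Gpx3 (59.5) fell behind Selenop (150) and Gpx4 (127).

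**Figure D1:**
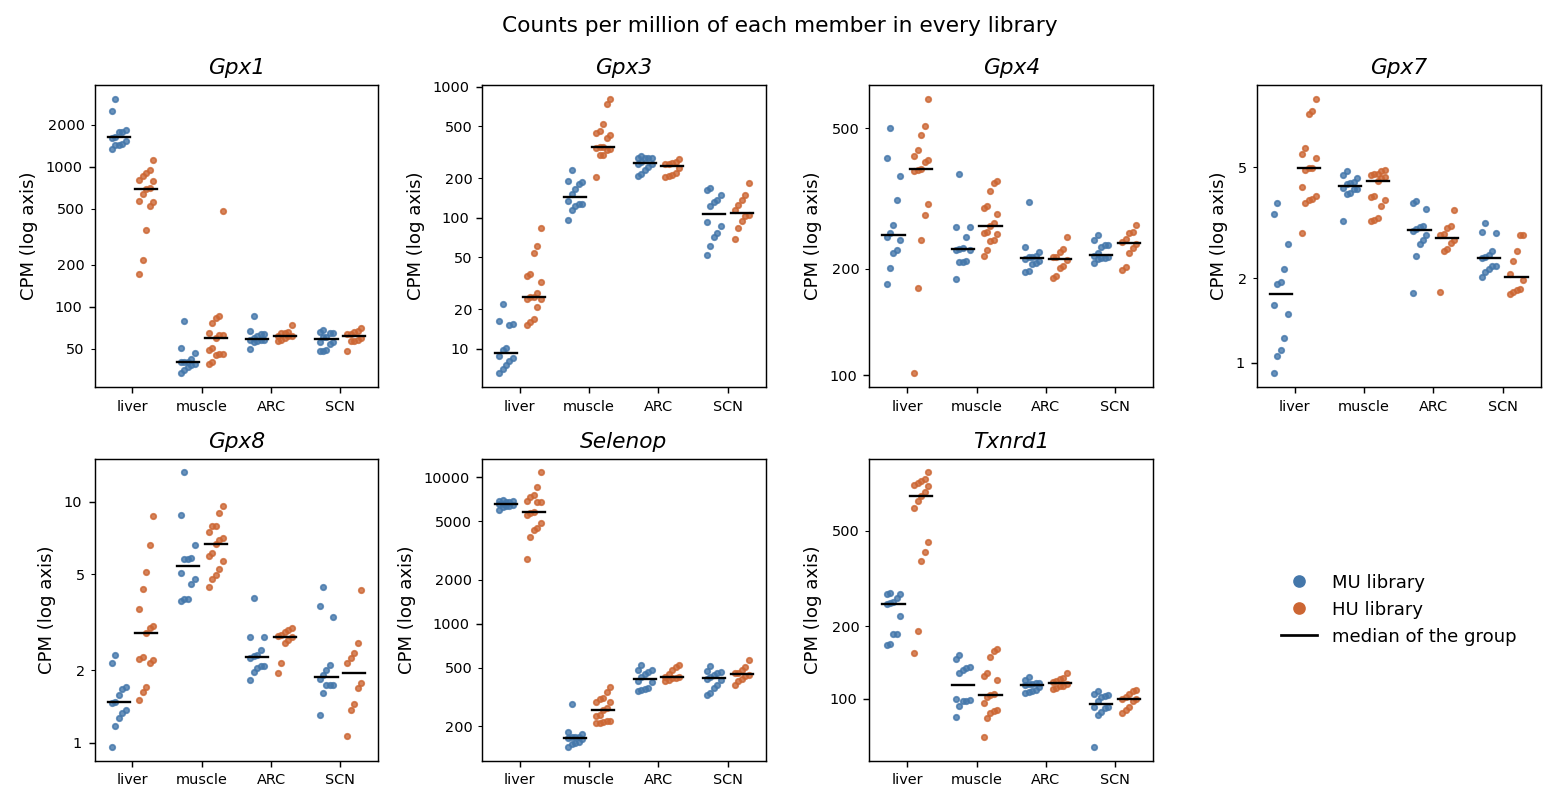
CPM (log axis) of each of the 7 genes in every library, by tissue and arm; points are libraries and black bars are group medians. Selenop and Gpx1 are highest in liver, Gpx3 is lowest in liver, and 14 of 15 HU muscle libraries lie above every MU muscle library for Gpx3.

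In skeletal muscle, Gpx3 had 96.8, 143 and 231 CPM as its lowest, median and highest MU library, and 206, 346 and 812 CPM in HU. Of 15 HU libraries, 14 lay above every MU library, and 1 taken at ZT2 (206 CPM) lay inside the MU range. At each of the 6 times sampled, all HU libraries were above all MU libraries. The mean was 152 ± 38.9 CPM in MU (SD, n = 12) and 421 ± 162 CPM in HU (SD, n = 15), a fitted difference of 1.46 ± 0.15 on the log2 scale (SE), or 2.75-fold. These values concern transcripts in muscle and not the circulating protein, whose best known source is the kidney.

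Selenop, the selenium carrier, was also higher in HU muscle, at 210, 256 and 371 CPM against 144, 166 and 285 CPM in MU. All 15 HU libraries exceeded the MU median, and 6 exceeded every MU library. The single high MU library (285 CPM, ZT2 replicate 2) also held the highest MU values of Gpx1, Gpx4, Gpx7 and Gpx8. The fitted difference was 0.61 ± 0.11 (log2), and at 5 of 6 times all HU libraries were above all MU libraries.

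Gpx1 in muscle ran from 33.5 through a median of 40.3 to 79.3 CPM in MU, and from 38.9 through 60.3 to 484 CPM in HU. The highest value belonged to a single library, HU muscle at ZT6, replicate 1, and the next highest HU library had 86.5 CPM. The ZT6 library also held 9675 CPM of red cell markers (globin genes and Alas2 summed), where the median of HU muscle was 182 CPM and the highest MU library had 699.5 CPM. The part of red cell RNA in the Gpx1 value was not tested. The fitted Gpx1 difference was 0.91 ± 0.33 with that library and 0.38 ± 0.12 without it. Without the same library Gpx3 stood at 1.41 ± 0.15 and Selenop at 0.56 ± 0.10.

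The other 4 genes differed less in muscle. Gpx4 was at 187, 227 and 370 CPM in MU and 217, 264 and 354 CPM in HU, a difference of 0.21 ± 0.09 (log2). Gpx8 differed by 0.18 ± 0.15, Gpx7 by -0.04 ± 0.08 and Txnrd1 by -0.05 ± 0.08, with overlapping ranges in each. Counted by the threshold used for all genes (edgeR's quasi-likelihood test, Benjamini-Hochberg adjusted p under 0.05), 3 of the 7 genes passed, all higher in HU, beside 26.9% of all 14197 genes tested (13.5% higher and 13.3% lower). At an unadjusted p under 0.05 it was 4 of 7 beside 39.3%. Since muscle levels chose the set, these counts are a description and nothing is read from them. None of the 7 had ranges that did not overlap, beside 0.106% of all genes. The median difference was 0.21 over the 7 genes and 0.03 over all genes.

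Markers of other cell types moved with the arm in muscle. Of 8 fat cell markers 5 were higher in HU, among them Cfd (3.04 ± 0.53, log2) and Adipoq (2.28 ± 0.55), and their sum ran from 1090 to 3259 CPM in MU and from 690 to 4442 CPM in HU. All 5 macrophage markers were higher in HU, summing to 32.3 to 108 CPM in MU and 61.8 to 178 CPM in HU. Of 6 slow-fibre markers 2 were lower, and 3 of 5 fibroblast markers were lower. Of 5 endothelial markers 3 were lower and 1 higher, and of 6 muscle fibre markers 2 were higher. No marker of these 6 lists had a median of 0 in either arm. Their part in the Gpx3, Selenop and Gpx1 differences was not tested, and in bulk tissue more cells of a type cannot be told apart from more RNA per cell.

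**Figure D2:**
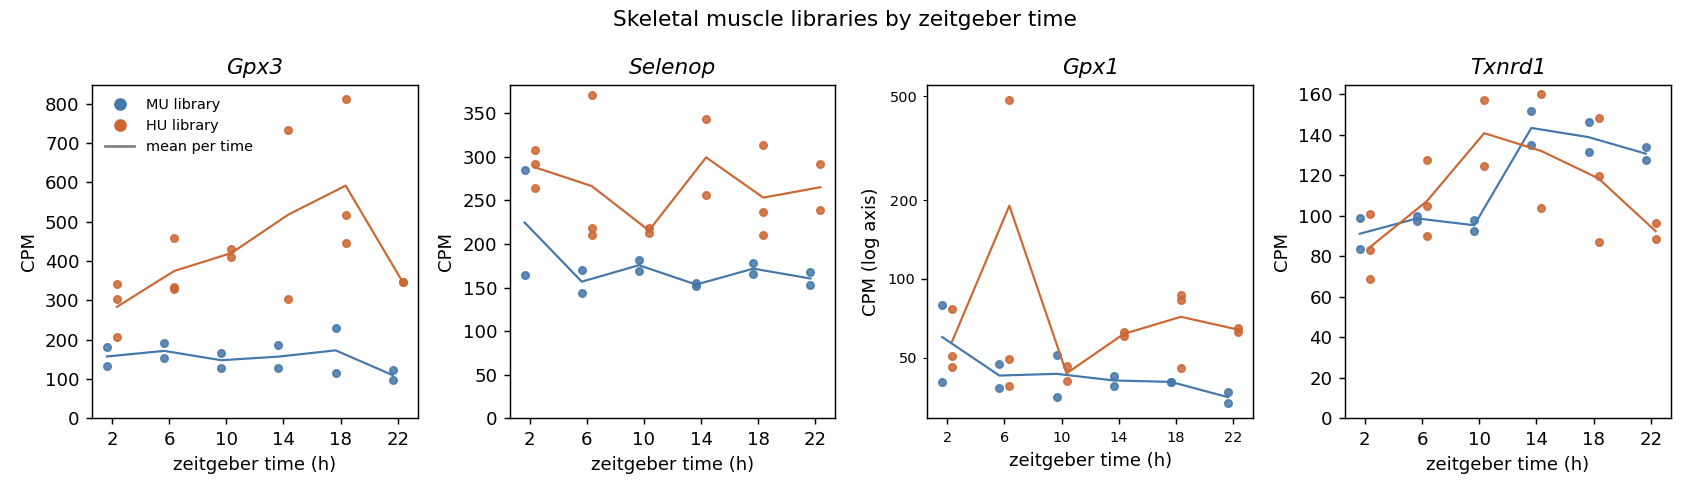
CPM of Gpx3, Selenop, Gpx1 (log axis) and Txnrd1 in each muscle library against zeitgeber time, with lines through the mean of each arm and time. HU libraries of Gpx3 lie above MU libraries at each time, a single HU library at ZT6 reaches 484 CPM for Gpx1, and Txnrd1 means are highest at ZT10 in HU and ZT14 in MU.

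Txnrd1 did not differ in mean level in muscle beyond the spread. Yet in the main edgeR fits (all libraries, mouse rows as library size) it was the only one of the 7 genes whose daily rhythm passed in any tissue. Other edgeR settings called more, among them all-row scaling in HU liver (below). With 1 library left out, Gpx3 in HU muscle passed in 3 of 27 fits, Gpx7 in MU liver in 2 and Gpx8 in MU muscle in 1. DESeq2 also called Gpx3 in HU muscle, Gpx7 in MU liver and Selenop in MU ARC. In MU muscle the mean of Txnrd1 was 91.2, 98.7 and 95.4 CPM at ZT2, ZT6 and ZT10 (n = 2 libraries each). It was 143, 139 and 131 CPM at ZT14, ZT18 and ZT22 (n = 2 libraries each). All 6 libraries of the later times lay above all 6 of the earlier times. That split was not among the planned tests and was not counted over all genes. In HU muscle the mean rose from 84.5 CPM at ZT2 to 107 CPM at ZT6 and 141 CPM at ZT10, and was 132, 118 and 92.4 CPM at ZT14, ZT18 and ZT22, with 2 or 3 libraries each that spread widely (87.1 to 148 CPM at ZT18).

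The fitted 24 h amplitude was 0.35 (log2, mean to peak) with a peak at ZT17.4 in MU, and 0.37 with a peak at ZT12.6 in HU. The edgeR quasi-likelihood test gave adjusted p = 0.0475 for MU and adjusted p = 0.0230 for HU. Thus 1 of 7 genes was called rhythmic in each arm, beside 5.31% of all genes in MU and 7.78% in HU. The HU peak was fitted 4.73 h earlier, and the edgeR test of a different rhythm between arms gave adjusted p = 0.256. None of the 7 passed that test in muscle, beside 0.0704% of all genes, and at an unadjusted p under 0.05 Txnrd1 did, 1 of 7 beside 13.8%. The MU call was kept in 10 of 27 fits that left out 1 library (adjusted p 0.0312 to 0.102) and the HU call in 25 of 27 (0.00721 to 0.0743). Both calls were lost when time was fitted as a factor, with adjusted p = 0.316 in MU and 0.160 in HU (edgeR). The MU call was also lost without the low-count filter (edgeR adjusted p = 0.0614), and the HU call when HU was fitted alone (edgeR adjusted p = 0.144).

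Gpx3 in HU muscle had its highest time means at ZT14 (518 CPM) and ZT18 (592 CPM) and its lowest at ZT2 (283 CPM). Its amplitude was 0.48 with a peak at ZT14.9, and the rhythm test gave adjusted p = 0.0666 by edgeR and 0.0258 by DESeq2. In MU muscle the amplitude of Gpx3 was 0.13 and the adjusted p = 0.856 (edgeR). The test of the difference between those 2 rhythms gave adjusted p = 0.418 (edgeR). Gpx8 in MU muscle had adjusted p = 0.119 (edgeR). At an unadjusted p under 0.05 there were 2 of 7 genes in MU muscle, Txnrd1 and Gpx8, beside 22.7% of all genes, and 2 of 7 in HU muscle, Txnrd1 and Gpx3, beside 26.6%. The other 4 genes had edgeR adjusted p of 0.309 or more in both arms of muscle.

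In liver, Gpx1, the cytosolic peroxidase, was lower among mouse rows of HU mice than of MU mice, whereas Gpx3, Gpx7, Gpx8 and Txnrd1 were higher. Mouse rows of MU livers can hold RNA of the injected murine hepatocytes beside that of host cells. The injected cells of HU livers were human, so the arms compare unlike mouse cells. A change within like cells cannot be told apart from that difference. For Gpx1 the lowest, median and highest libraries were 1328, 1623 and 3060 CPM in MU and 171, 694 and 1114 CPM in HU. The ranges did not overlap, and all 15 HU libraries lay below all 12 MU libraries. The difference was -1.46 ± 0.21 (log2), with adjusted p = 1.42e-06 by edgeR's quasi-likelihood test.

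Txnrd1 ran from 167 through 248 to 275 CPM in MU and from 154 through 694 to 874 CPM in HU. Of 15 HU libraries 13 lay above every MU library and 1 lay below. The difference was 1.33 ± 0.20 (log2; edgeR adjusted p = 1.49e-06). The 2 low HU libraries, ZT10 replicate 1 (191 CPM) and ZT18 replicate 3 (154 CPM), also held the lowest Gpx1 values, 171 and 216 CPM, and the lowest Gpx4 values.

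Gpx3 was scarce in liver but rose from 6.50, 9.36 and 21.9 CPM in MU to 15.2, 25.1 and 83.2 CPM in HU, and 11 of 15 HU libraries exceeded every MU library. The difference was 1.56 ± 0.25 (log2; edgeR adjusted p = 4.89e-06). Gpx7 went from 0.917, 1.76 and 3.73 CPM to 2.91, 4.94 and 8.77 CPM, and 13 of the 15 HU values exceeded the MU maximum. Its difference was 1.44 ± 0.18 (edgeR adjusted p = 1.70e-07). Gpx8 went from 0.957, 1.47 and 2.31 CPM to 1.51, 2.84 and 8.70 CPM, a difference of 1.15 ± 0.24 (edgeR adjusted p = 0.000145), and 8 of 15 HU libraries exceeded every MU library. Gpx7 and Gpx8 rested on few reads in HU liver, 53 to 836 counts per library for Gpx7 and 38 to 264 for Gpx8.

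Gpx4 and Selenop did not pass in liver. Gpx4 had 181, 249 and 499 CPM in MU and 101, 383 and 605 CPM in HU, a difference of 0.34 ± 0.18 (edgeR adjusted p = 0.0902), and without the HU library at ZT18, replicate 3, it passed (edgeR adjusted p = 0.0109). Scaled to all rows it stood at -0.31, on a scale that lowers the median of all genes, and relative to that median it stayed above, by 0.27 with mouse rows and 0.38 with all rows. Selenop was even in MU livers, from 5977 to 6967 CPM, and wide in HU livers, from 2760 to 10812 CPM. Its difference was -0.10 ± 0.18 (edgeR adjusted p = 0.595), with 4 HU libraries above and 8 below every MU library. The coefficient of variation of Selenop was 4.59% in MU and 33.0% in HU liver.

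In all, 5 of 7 genes differed in liver, 4 higher and 1 lower, beside 79.5% of all 14977 genes tested (42.5% higher and 37% lower). At an unadjusted p under 0.05 the count was the same 5, beside 80.6%. The share called among the 7 was thus near that of the liver transcriptome. Gpx1 was the 1 gene of 7 with no overlap, beside 20% of all genes. The median difference was 1.15 over the 7 genes and 0.07 over all genes.

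**Figure D3:**
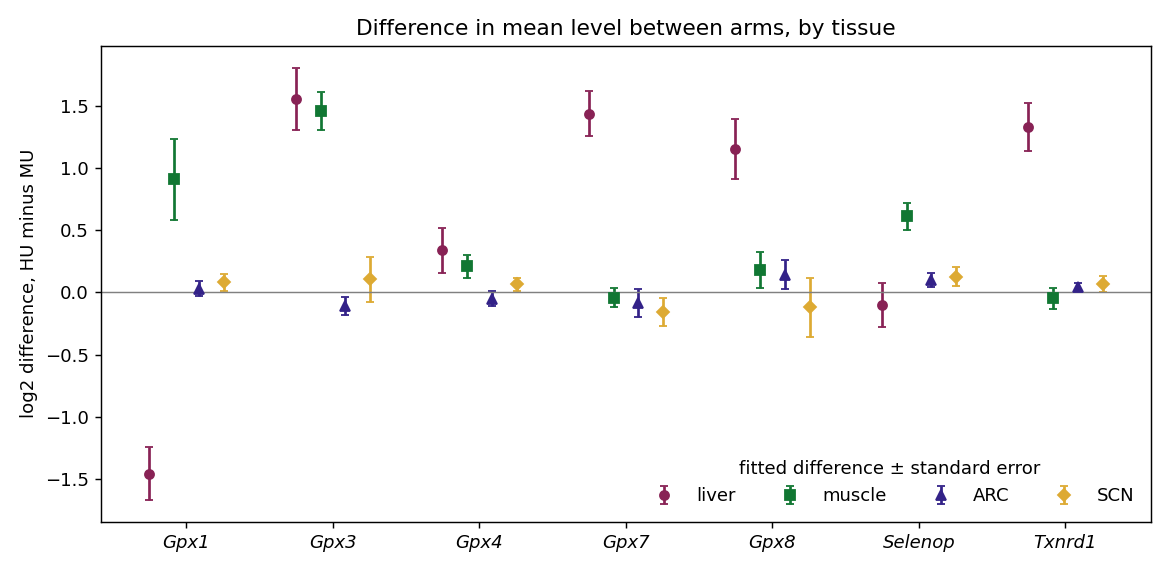
Fitted log2 difference between arms (HU minus MU) with its standard error for each of the 7 genes in 4 tissues. The liver and muscle values of Gpx3 lie close together (1.56 and 1.46), Gpx1 is lower in HU liver and higher in HU muscle, and in ARC and SCN the differences lie within 0.16 of 0.

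These liver values count only mouse rows. In HU livers such rows stand for the mouse cells that remain beside human hepatocytes, apart from any reads that fit both species. Markers of several cell types among these rows moved with the arm. Mouse hepatocyte markers summed to 7490 to 83040 CPM in HU against 91950 to 122800 CPM in MU. All 5 stellate cell, all 5 fibroblast, all 5 macrophage, all 5 endothelial and all 5 bile duct markers were higher in HU among mouse rows. Scaled to the counts of both species, 4 of 5 fibroblast, 2 of 5 stellate cell, 1 of 5 endothelial, 0 of 5 macrophage and 5 of 5 bile duct markers passed as higher, and none passed as lower (edgeR). On that scale 2494 of all 14732 genes passed as higher and 8978 as lower. Stellate markers summed to 468 to 638 CPM in MU and 552 to 5067 CPM in HU, and macrophage markers to 241 to 467.5 CPM and 270.5 to 1545 CPM. No marker of these lists had a median of 0 in either arm. The part of the cell makeup in the differences of the 7 genes was not tested. In liver too, more cells of a type cannot be told apart from more RNA per cell.

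The level of each of the 7 genes also followed the human share of counts across the 15 HU livers. The share was not balanced over time, at 66.3% and 81.3% at ZT10 but 42.7% and 52.5% at ZT22. The permutations did not hold time fixed, so share and time cannot be fully told apart in these livers. Gpx4, Selenop, Txnrd1, Gpx7 and Gpx1 were lower at a higher human share, with Pearson r of -0.78, -0.77, -0.60, -0.60 and -0.58 and Spearman rho of -0.81, -0.72, -0.65, -0.59 and -0.58. Gpx8 and Gpx3 were higher, with r of 0.82 and 0.74 and rho of 0.79 and 0.725. Over these 7 relations the adjusted permutation p-values of r were 0.00126 for Gpx4 and Gpx8, 0.00182 for Selenop, 0.00254 for Gpx3, 0.0213 for Gpx7 and Txnrd1 and 0.0231 for Gpx1. Those of rho were 0.00221 for Gpx4 and Gpx8, 0.00609 for Gpx3 and Selenop, 0.0150 for Txnrd1 and 0.0244 for Gpx1 and Gpx7.

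The liver with the lowest share (15.9%, ZT2 replicate 1) had 605 CPM of Gpx4, 15.98 CPM of Gpx3 and 1.70 CPM of Gpx8. The liver with the highest (93.1%, ZT18 replicate 3) had 101, 83.2 and 8.70 CPM, and it held the highest sums of stellate, fibroblast, macrophage, endothelial and bile duct markers as well. Without those 2 livers, r was 0.75 for Gpx8, -0.78 for Selenop and -0.67 for Gpx4, which kept an adjusted permutation p of 0.0107, 0.0107 and 0.0293. For Gpx3 it was 0.59, with adjusted permutation p = 0.0591, and for Gpx1, Gpx7 and Txnrd1 it ran from -0.43 to -0.39, so those 4 relations rest in part on the 2 livers when mouse rows set the library size. Scaled to all rows, mouse and human, Gpx1, Gpx7 and Txnrd1 kept r of -0.79, -0.81 and -0.78 without the 2 livers, a scale on which mouse counts as a whole are lower at a higher human share.

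**Figure D4:**
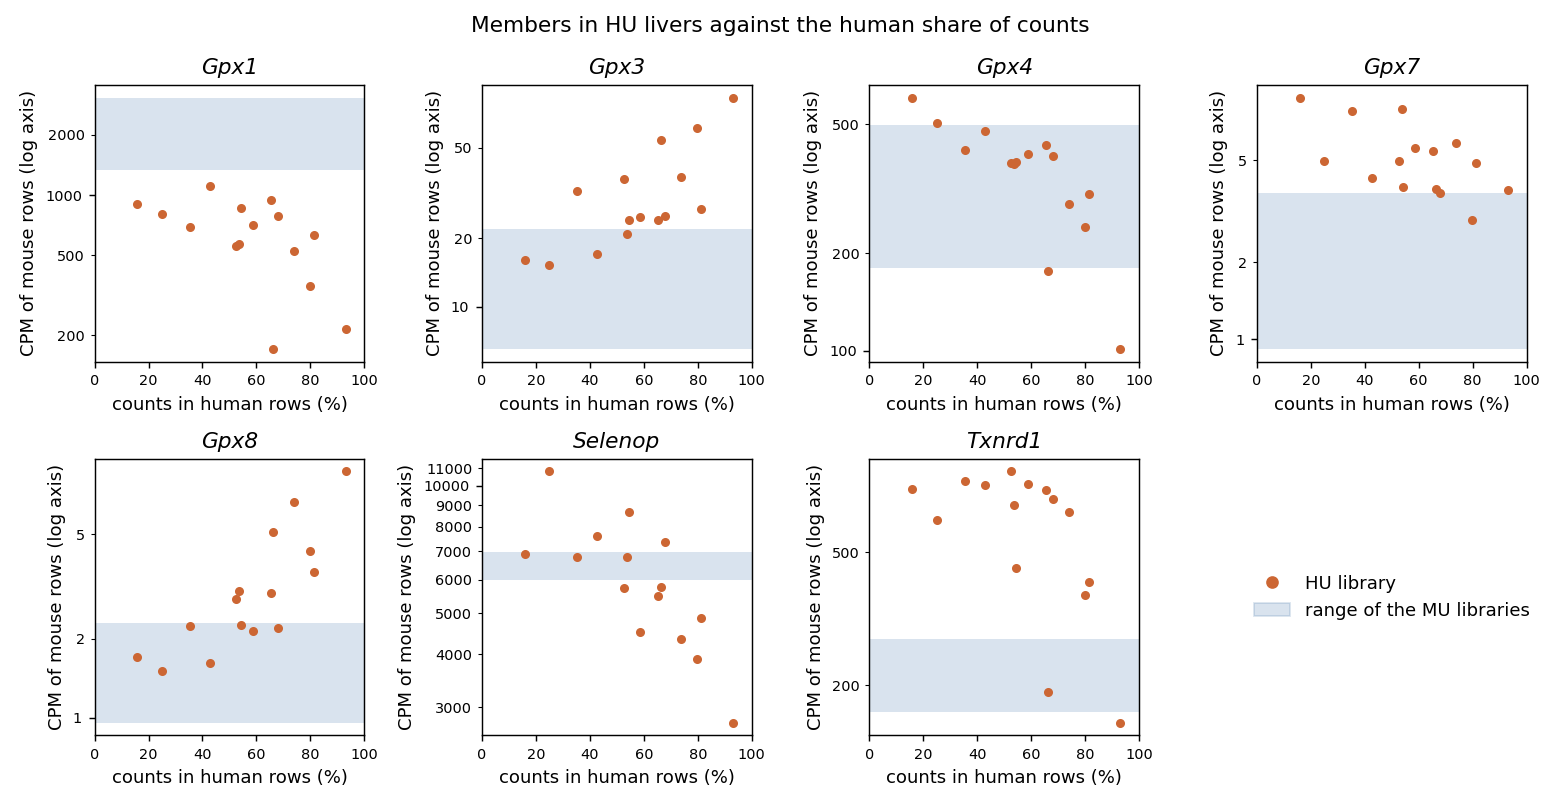
CPM of each of the 7 genes among mouse rows (log axis) in 15 HU livers against the percent of counts in human rows; the band is the range of the 12 MU livers. Gpx3 and Gpx8 climb above the band with a rising human share, Gpx4 and Selenop drop across it, and all Gpx1 points lie below it.

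The library size used mattered in liver. When mouse counts were scaled to all rows, mouse and human, the median difference over all genes moved from 0.07 to -0.70 (log2), and genes higher in HU made up 21.7% of calls instead of 53.5%. On that scale Gpx1 differed by -2.14, Gpx3 by 0.66, Gpx7 by 0.73, Txnrd1 by 0.63, Gpx8 by 0.21, Gpx4 by -0.31 and Selenop by -0.74. Gpx8 then no longer passed (edgeR adjusted p = 0.286), Selenop passed as lower (edgeR adjusted p = 0.0331), and Txnrd1 just passed (edgeR adjusted p = 0.04995). Relative to the median of all genes, Gpx1 was at -1.52 with mouse rows and -1.44 with all rows, Gpx3 at 1.49 and 1.36, Gpx7 at 1.37 and 1.43, Txnrd1 at 1.27 and 1.33 and Gpx8 at 1.09 and 0.91. Gpx4 was at 0.27 and 0.38, and Selenop at -0.17 and -0.04. The relation with the human share was also lower on all rows, with r of -0.29 for Gpx3 and -0.16 for Gpx8.

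No rhythm of the 7 genes passed in liver in either arm by edgeR with mouse rows as library size. Scaled to all rows 4 of 7 passed in HU liver, Gpx1, Gpx4, Gpx7 and Txnrd1, as did 8605 of all 14732 genes. The human share was not balanced over time in HU livers, so time and share cannot be fully told apart in their rhythm tests. With mouse rows, 17.3% of all genes were rhythmic in MU liver and 0.167% in HU liver, and 1.28% had a different rhythm between arms. At an unadjusted p under 0.05 by edgeR there was 1 of 7 in each test: Gpx7 in MU beside 31.7% of all genes (adjusted p = 0.0762), Txnrd1 in HU beside 15.8% (adjusted p = 0.272) and Gpx7 for the difference beside 21% (adjusted p = 0.220). Gpx7 in MU liver had its highest time mean at ZT10 (3.20 CPM) and its lowest at ZT18 (1.01 CPM), and DESeq2 gave adjusted p = 0.0401 for its rhythm there. Selenop in MU liver had an amplitude of 0.06 (log2).

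In the arcuate nucleus and the SCN no level of the 7 genes differed between arms by edgeR, before or after adjustment, beside 0.00663% and 0% of all genes called, and 4.24% and 2.17% at an unadjusted p under 0.05. The HU minus MU differences ran from -0.11 (Gpx3) to 0.14 (Gpx8) in ARC and from -0.16 (Gpx7) to 0.13 (Selenop) in SCN, with SE of 0.03 to 0.12 and 0.05 to 0.24. Gpx3, at 1.46 in muscle, was at -0.11 ± 0.07 in ARC and 0.11 ± 0.18 in SCN. Its ARC libraries ran from 207 to 294 CPM in MU and from 205 to 284 CPM in HU, and its SCN libraries from 51.9 to 169 CPM and from 68.5 to 183 CPM. Whether the arm difference itself differed between tissues was not tested, since the tissues were fitted apart.

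Rhythms in the nuclei did not pass either by edgeR, beside 1.41% of all genes in MU and 0.0995% in HU in ARC, 0.207% and 0.00666% in SCN, and 0% for a different rhythm in both. The nearest was Selenop in MU ARC, with 360 to 382 CPM as means at ZT2 to ZT10 and 449 to 503 CPM at ZT14 to ZT22. All 6 later libraries lay above all 6 earlier ones, a split not among the planned tests and not counted over all genes. The rhythm test gave adjusted p = 0.111 by edgeR and adjusted p = 0.0284 by DESeq2. In HU ARC the amplitude of Selenop was 0.02 against 0.21 in MU, and the test of the difference gave an edgeR adjusted p of 1. At an unadjusted p under 0.05 Selenop was the 1 gene of 7 in MU ARC beside 14.5% of all genes, and Txnrd1 the 1 gene of 7 in MU SCN beside 11.6% (edgeR adjusted p = 0.429). There was none in HU ARC (5.87% of all genes), in HU SCN (5.52%) or for a different rhythm in ARC (1.78%) and SCN (1.4%).

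Gpx3 was the gene of the 7 with the largest fitted difference between the 2 nuclei. Its lowest, median and highest of 22 ARC libraries had 205, 256.5 and 294 CPM. In 22 SCN libraries they were 51.9, 109.5 and 183 CPM. Gpx3 had ranges that did not overlap, and the share of all genes of that kind was not counted. It was lower in SCN by 2.30-fold (-1.20 ± 0.11, log2; edgeR adjusted p = 5.27e-12). Txnrd1 was lower in SCN too (-0.26 ± 0.03, log2; edgeR adjusted p = 2.06e-08), at 105.5 to 128 CPM in ARC and 62.8 to 109 CPM in SCN. Gpx7 was lower too (-0.30 ± 0.07; edgeR adjusted p = 0.000481), at medians of 2.87 and 2.26 CPM. Gpx4 was slightly higher in SCN (0.08 ± 0.04; edgeR adjusted p = 0.0379), a call that was lost in 9 of 44 fits that left out 1 library and when libraries of the same arm, time and number were blocked (edgeR adjusted p = 0.0538).

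Selenop (0.01 ± 0.03), Gpx1 (-0.07 ± 0.05) and Gpx8 (-0.22 ± 0.13) did not pass between the nuclei, and Gpx8 passed in 4 of 44 such fits. That makes 4 of 7 genes, 1 higher and 3 lower in SCN, beside 73.7% of all 15105 genes tested (36.5% higher and 37.2% lower). Choroid plexus markers summed to 34.0 to 60.0 CPM in ARC and 38.9 to 83.8 CPM in SCN, and neuron markers to 2494 to 3276 CPM and 2898 to 4602 CPM. Astrocyte markers overlapped, at 1570 to 2137 CPM in ARC and 1380 to 4140 CPM in SCN. The part of cell makeup in the Gpx3 difference was not tested.

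**Figure D5:**
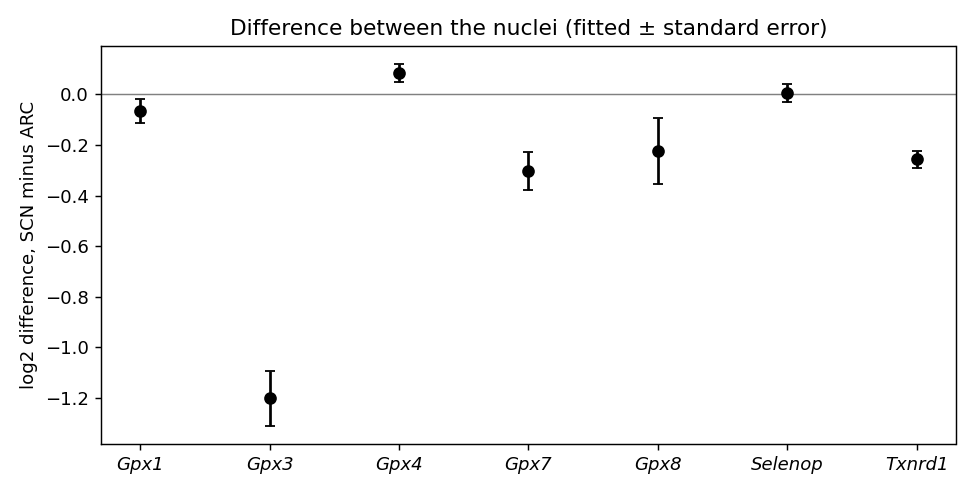
Fitted log2 difference between the nuclei (SCN minus ARC) with its standard error for each of the 7 genes, over 44 libraries of both arms. Gpx3 stands at -1.20, and the other 6 lie between -0.30 and 0.08.

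The rest of the selenium and peroxide pathway was counted in the same fits. In HU liver 4 of 17 other selenoprotein genes rose and 12 fell (edgeR, all genes adjusted together, beside the 42.5% and 37% above). Here and in the next paragraph, rose and fell mean higher and lower among mouse rows of HU than of MU livers, which hold unlike mouse cells. Msrb1, a methionine sulfoxide reductase, fell by 2.13 on the log2 scale (median 362 CPM in MU and 90.85 CPM in HU). Dio1, a thyroid hormone deiodinase, fell by 4.64 (5.84 to 0.199 CPM), and Txnrd2, the mitochondrial thioredoxin reductase, fell by 1.51. Dio3, which inactivates thyroid hormone, rose by 2.93 from 0.168 to 1.24 CPM. Of 11 genes for selenocysteine synthesis and selenium supply, 1 rose and 7 fell. Scly, which recovers selenium from selenocysteine, fell by 1.21, Sepsecs, which makes the selenocysteinyl tRNA, by 1.45, and Eefsec, the elongation factor for selenocysteine, by 0.98. Lrp8, a receptor for selenoprotein P, rose by 3.25 from 0.404 to 3.94 CPM. Scaled to all rows, 3 of the 17 rose and 13 fell, and 1 of the 11 rose and 10 fell. On that scale 2494 of all 14732 genes rose and 8978 fell.

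The partners of Txnrd1 and of the peroxidases divided in HU liver. Of 11 thioredoxin and peroxiredoxin genes 2 rose and 7 fell: Srxn1, which repairs overoxidised peroxiredoxins, rose by 2.45 (67.7 to 452 CPM), and Msra fell by 1.57, Txn2 by 0.87 and Prdx2 by 0.84. Of 13 genes of glutathione and other peroxide defence 8 rose and 4 fell. Slc7a11, the cystine importer, rose by 3.98 from 31.8 to 910 CPM, Nqo1, a quinone reductase, by 3.47 from 9.92 to 159 CPM, and Hmox1, heme oxygenase, by 1.39, while Keap1 fell by 0.57. Scaled to all rows, 1 of the 11 rose and 9 fell, and 5 of the 13 rose and 5 fell, beside 2494 and 8978 of all 14732 genes. Of 8 genes of oxidative folding, where Gpx7 and Gpx8 act, 1 rose and 6 fell: Ero1l, an oxidase of protein disulfide isomerase, rose by 0.80, and Prdx4 fell by 0.80, Pdia6 by 0.73 and Pdia4 by 0.41. Scaled to all rows, none of the 8 rose and 7 fell, beside the same counts of all genes.

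In HU muscle the same lists moved less, beside the 13.5% higher and 13.3% lower of all genes. Of 16 other selenoprotein genes 6 passed as higher and 1 as lower. Selenow, the muscle selenoprotein W, was higher by 0.38 ± 0.10 (681 CPM in MU and 841 CPM in HU), Selenof by 0.24 ± 0.06 and Dio3 by 1.39 ± 0.36 (0.105 and 0.298 CPM), and Dio2, which activates thyroid hormone, was lower (-1.04 ± 0.21). Of 10 genes for selenocysteine synthesis and supply, 2 were higher, Secisbp2 (0.22 ± 0.06) and Lrp8 (1.38 ± 0.45, at 0.196 and 0.376 CPM), and none was lower.

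Of 11 thioredoxin and peroxiredoxin genes 1 was higher and 6 lower in HU muscle, among them Prdx6 (-0.36 ± 0.07), Txn2 (-0.29 ± 0.06), Prdx5 (-0.27 ± 0.06) and Glrx (-0.24 ± 0.07). Of 13 genes of glutathione and peroxide defence 5 were higher and 1 lower. Gsr, glutathione reductase, differed by 0.28 ± 0.09, Sod1 by 0.27 ± 0.08, the extracellular Sod3 by 0.61 ± 0.19 and the mitochondrial Sod2 by -0.31 ± 0.08. Of 8 folding genes P4hb alone passed, as higher (0.20 ± 0.05). In ARC and SCN no gene of these 5 lists passed the level test by edgeR.

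Rhythms in these lists were counted as well. In MU liver 4 of 17 other selenoprotein genes and 4 of 8 folding genes passed, beside the 17.3% of all genes, and no gene of either list passed in HU liver. Of 11 genes for selenocysteine synthesis and supply 2 passed in MU liver, and no gene of the thioredoxin and glutathione lists passed in either arm of liver. In MU muscle 2 of 16 other selenoprotein genes passed, beside 5.31% of all genes. Of 10 selenocysteine synthesis genes 1 passed in each arm of muscle, and of 11 thioredoxin genes 1 passed in each, Txnip in MU and Srxn1 in HU, where 7.78% of all genes passed. Of 13 genes of glutathione and other peroxide defence 1 passed in each arm of muscle, the transcription factor Nfe2l2 (edgeR adjusted p = 0.0338 in MU and 0.0357 in HU). In MU ARC 3 of 8 folding genes passed, beside 1.41% of all genes, and in MU SCN 2 of 8, beside 0.207%. None of the genes in these lists had a different rhythm between arms in any tissue by edgeR.

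Genes whose level followed Gpx3 most closely across the 27 muscle libraries were Tdrkh (Pearson r = 0.91 of log2 CPM), Pcid2 (0.86), Tmem176b (0.86), Ctxn3 (0.86) and B4galt1 (0.85). Selenop followed it with r = 0.71, Gpx4 with 0.53, Gpx1 with 0.48, Gpx8 with 0.27, Txnrd1 with 0.13 and Gpx7 with -0.28. After the mean of each arm was subtracted, the closest were Wbp2 (0.73), Tdrkh (0.71), Lats1 (0.70), Gm10309 (0.70) and Abcc4 (0.70), and Txnrd1 came to 0.47 and Selenop to 0.16. In the 12 MU livers the genes closest to Selenop were Spata1 (0.92), Scarb2 (0.84), Foxa3 (0.83), Fam169b (0.83) and Slc1a2 (0.83). These correlations share the arms and library scaling and are a description.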

How the data were processed

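The authors deposited raw gene counts per library, 1 table for liver (mouse and human rows) and 1 for muscle, ARC and SCN. Per the submitters' processing notes, reads were aligned with STAR to mouse (GRCm38/mm10) and human (hg38/GRCh38, hg19) builds. Libraries were directional, per the labels. The counter, its strand setting and the handling of reads that fit both species are not given in the sources used here, and such reads could raise mouse counts in HU livers. Mouse IDs were named from GENCODE (19615 of 19689 and 20329 of 20415 matched), and human rows served only for the human share.

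Per tissue, edgeR 4.0.16 (R 4.3.3) fitted mouse counts with TMM, filterByExpr, arm and a 24 h cosine and sine per arm (quasi-likelihood F tests, Benjamini-Hochberg over all genes, threshold 0.05). SE is the absolute log2 difference over the square root of F. SCN and ARC were fitted together with arm and time. CPM are TMM-scaled per tissue. Correlations with the human share used 100000 permutations, two-sided. Likeness used log2 CPM with a prior count of 2. The script was tested on simulated data.

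The 7 genes and the lists were chosen with earlier results of these data known. Named genes are the 7, up to 4 of each list with the smallest p among those that passed, and the 5 most like Gpx3 or Selenop by r. The markers of the nuclei were chosen after their values were seen. Of 6 hepatocyte markers 5 were matched. At ZT22 the HU columns of ARC and SCN are numbered 1 where the sample titles say 2, so they were used by group only. Same-numbered libraries of both arms did not deviate together throughout (mean r of 0.115 in liver, 0.0250 in muscle, 0.130 in ARC and 0.120 in SCN). Nor did those of ARC and SCN (mean r of 0.142, over 0.1 in 12 of 20 pairs), so numbers were not used as pairs. Where both groups have 2 libraries the 2 pairs give the same r, so the pairs are not independent. The main fit of SCN against ARC took its 44 libraries as independent. Alternatives were DESeq2 1.42.0, other size factors, no filter, time as a factor, each arm alone, all-row library size, a replicate block and leaving out each library.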

Additional observations from a re-analysis of the deposited data

Results flagged for a closer look

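Of 14 groups of at most 10 libraries tested for a library far from the rest, 1 stood out: Gpx8 in HU SCN, where the highest library had 4.32 CPM, the next 2.58 CPM and the lowest 1.07 CPM. Chance marks about 1 group in 20, and 1 was marked among 14. The marked library, taken at ZT6, also held the highest HU SCN sums of fibroblast (209.7 CPM), endothelial (159.8 CPM) and macrophage markers (209.2 CPM). The part of cell makeup in its Gpx8 value was not tested. Gpx8 had 32 to 140 counts per library in that group, and its highest MU SCN library reached 4.44 CPM.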

How the results depend on the processing

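In liver 5 of the 7 genes passed for level by edgeR and 5 to 6 when 1 library was left out, in muscle 3 and 2 to 4, and between SCN and ARC 4 and 3 to 5. Since muscle levels chose the set, the muscle level counts and calls here and below are a description. Gpx1 in muscle lost its call without the low-count filter, with time as a factor and with the replicate block. It kept the call in only 12 of 27 fits that left out 1 library. DESeq2 gave it no p. Scaling to all rows in liver, which lowers mouse genes as a whole, put Gpx4 at -0.31 and the relation with the human share at r = -0.29 for Gpx3 and -0.16 for Gpx8, while Gpx4 stayed above the median of all genes. Genes passing for rhythm were, in MU liver, 1 by DESeq2 and 1 with each arm alone (0 to 1 without 1 library, 1 being Gpx7 without HU ZT18 replicate 2 or MU ZT6 replicate 1) against 0, and in HU liver 4 with all rows against 0. In MU muscle they were 0 without a filter and 0 with time as a factor (0 to 1 without 1 library) against 1. In HU muscle they were 0 with time as a factor, 0 with HU alone and 2 by DESeq2 (0 to 2 without 1 library) against 1, and in MU ARC 1 by DESeq2 against 0. Relations with the human share that passed fell from 7 to 3 without the 2 farthest livers. The cause of these changes was not tested. Over all genes, counts of rhythmic genes moved as well: in liver 2598 in MU against 640 with time as a factor, 3928 with each arm alone and 85 with all rows, 25 in HU against 8 with time as a factor, 8 with each arm alone, 8605 with all rows and 516 by DESeq2, and 192 for the difference against 107 without a filter, 11 with time as a factor, 11 with all rows and 1152 by DESeq2. With time as a factor, each arm alone and DESeq2, in that order, the counts were 165, 1749 and 1491 in MU muscle (754 as reported), 440, 135 and 1703 in HU muscle (1104), 29, 48 and 514 in MU ARC (213), 2, 0 and 92 in HU ARC (15), 134, 14 and 289 in MU SCN (31) and 0, 0 and 22 in HU SCN (1). A different rhythm in muscle was called for 10 genes, 1 with time as a factor and 161 by DESeq2, and HU ARC had 40 rhythmic genes without a filter. The replicate block could not use the HU libraries of ARC and SCN at ZT22, which have no matched number, so that time was missing for HU there. With that block 5 were left in HU ARC, 12 in MU SCN and 0 in HU SCN. DESeq2 called 14 levels in ARC (1 by edgeR) and 1 in SCN (0 by edgeR, with 2.17% of genes at an unadjusted p under 0.05).

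With the replicate number as a block, Gpx4 in liver passed (0.42, edgeR adjusted p = 0.0397), which brought that count to 6, Gpx1 in muscle did not, which left 2, and no other count of the 7 genes changed. With a block for arm, time and number, added after seeing the data, Gpx4 between SCN and ARC had edgeR adjusted p = 0.0538. Gpx7 and Gpx8 rested on 32 to 846 counts per library, which limits their precision.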
